A study of Mus musculus with 11 samples.

Results

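The genes described here are 10 genes that p53 is known to activate in the mouse: Ptprv, Cdkn1a, Mdm2, Ccng1, Trp53inp1, Bax, Bbc3, Sesn2, Phlda3 and Eda2r. They were measured by poly(A) RNA sequencing in primary hippocampal neurons, that is, cultures grown from the hippocampi of embryonic day 17 embryos of CD1 mice, an outbred strain. On day 10 in vitro (DIV10) the cultures received lipid nanoparticles that carried a mimic oligonucleotide of the microRNA miR-181a-5p in 5 samples and a negative control oligonucleotide in 6 samples, and RNA was taken after 48 hours, at DIV12. According to the study's methods ApoE4 protein was added together with the nanoparticles in both groups, and the hippocampi of several embryos were pooled before plating. All 10 genes were found among the 48709 genes of the count tables, and all 10 were among the 17365 genes that reached 5 counts in 50% or more of the samples and were tested. The 10 genes were chosen from the mimic against control counts of these same 11 samples, with the higher Ptprv count of the mimic group in view. The differences between the groups are therefore given for the 10 genes as a description, with no test.

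p53 is a transcription factor that is held at a low level in unstressed cells, because Mdm2 binds it and marks it for degradation. After DNA damage or other stress p53 accumulates, binds a DNA element made of a pair of half-sites, and switches on genes that stop the cell cycle, start apoptosis, lower growth signalling or dampen p53 itself. In neurons, which do not divide, this pathway is known mainly for its part in cell death after injury. Ptprv encodes a receptor-type protein tyrosine phosphatase, also called Esp or OST-PTP, which is best known from osteoblasts and Sertoli cells and which p53 induces in mouse cells.

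A microRNA finds its target messenger RNAs through the seed, its bases 2 to 8, which pairs mostly with sites in the 3′ UTR, the untranslated region behind the stop codon. The mimic had 23 bases and was identical to the mature mmu-miR-181a-5p of RefSeq, which comes from 2 loci, at chr1:137966468-137966490 (Mir181a-1) and chr2:38852741-38852763 (Mir181a-2), both on the + strand of GRCm38.p6. It is shown with its seed in capitals.

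mmu-miR-181a-5p: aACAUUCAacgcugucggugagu

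The reverse complement of the seed (7-base match, TGAATGT) and the same match followed by an A (8-base match, TGAATGTA) were searched in each gene's longest 3′ UTR (GENCODE M21, GRCm38), on the transcript strand. Of the 9 genes of the 10 with an annotated 3′ UTR, 2 held a 7-base match, and 1 of these was an 8-base match. Among the 14489 tested genes with a 3′ UTR, 18.5% held the 7-base match and 6.00% the 8-base match. The 2 genes were Ccng1, with 1 match in exon 6 at chr11:40748865-40748872 (- strand), and Eda2r, with 1 match in exon 8 at chrX:97336771-97336777 (- strand). The sites are shown in the 5′ to 3′ direction of the transcript, with the match in capitals, because they are where the mimic could pair with a gene of the set.

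Ccng1: tctccatgctggctTGAATGTAtgatcca

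Eda2r: aaattgttgtttctTGAATGTctttgcat

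Ptprv has no annotated 3′ UTR. GENCODE M21 lists it as a processed transcript and RefSeq as a transcribed pseudogene, at chr1:135108497-135132594 on the - strand, and none of its 11 annotated transcripts (longest 6108 bases) held the 7-base match (0 of 11). The p53 half-site consensus, which has 10 bases and is its own reverse complement, was searched in RefSeq promoters (250 bases before to 50 after each start, GRCm38.p6). Promoters were found for 8 of the 10 genes, all except Ptprv and Trp53inp1. A half-site stood in a promoter of 4 of these 8 genes, and 8.36% of all 32851 promoters held a half-site. The first value counts genes, of which Bbc3 and Cdkn1a have several promoters, and the second counts single promoters, so the values are not like for like. Cdkn1a had 2 half-sites 12 bases apart, an arrangement with a gap of at most 13 bases that 0.0731% of all promoters held. The half-sites are shown in capitals with 10 bases on each side, on the strand of the gene, since they are the feature that these genes share with the element p53 binds.

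Cdkn1a, first half-site, starting 73 bases before the start, chr17:29090896-29090925 (+): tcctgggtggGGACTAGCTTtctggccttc

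Cdkn1a, second half-site, starting 51 bases before the start, chr17:29090918-29090947 (+): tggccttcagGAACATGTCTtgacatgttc

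Ccng1, starting 185 bases before the start, chr11:40755452-40755481 (-): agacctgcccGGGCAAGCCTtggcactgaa

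Mdm2, starting 186 bases before the start, chr10:117710925-117710954 (-): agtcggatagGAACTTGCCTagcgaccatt

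Bax, starting 201 bases before the start, chr7:45467080-45467109 (-): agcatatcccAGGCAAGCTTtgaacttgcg

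A match to these letters is not a measured binding site, and the search covers the 300 bases of each promoter alone, whereas p53 elements are also known from introns.

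Total counts ranged from 17287168 to 48091231 per sample, control replicate 1 being the deepest. A count of 0 allows up to 3 counts, or 0.0630 to 0.175 CPM (counts per library size, with TMM factors), and this limit covers counting error only. In the fit across all 17365 genes, 495 (2.85%) were called (two-sided quasi-likelihood test of edgeR, Benjamini-Hochberg adjusted p below 0.05), 188 of them higher (1.08%) and 307 lower (1.77%) in mimic samples, and for 502 genes (2.89%) the groups did not overlap in CPM. The labels do not say whether samples of a group came from separate cultures, so p-values measure the spread between these samples, which may be technical. In bulk RNA, fewer cells of a type and less RNA per cell cannot be told apart. The labelled cell type was checked against its markers: all 12 neuron markers were detected, with a summed level of 10031 to 10299 CPM in the control group and 9568 to 9885 CPM with the mimic, and the 10 astrocyte markers also summed to 4899 to 5339 CPM and 4496 to 4812 CPM.

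Of the 10 p53 target genes, the fit across all genes placed 1 (Ptprv) among the genes called higher in mimic samples and 0 among those called lower. Ptprv was taken into the set for its higher mimic counts, so the choice of genes fixes this count and nothing is read from it. In the other 9 genes the groups overlapped. The median log2 fold change of the 10 was -0.02 (all tested genes: -0.00015), with 4 values above 0 and 6 below. When each sample in turn was left out, the median turned above 0 only without control replicate 1 (0.013). The 10 genes together summed to 364 to 376 CPM in control samples (median 366) and to 352 to 387 CPM in mimic samples (median 371), and these ranges overlapped. 

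**Figure D1:**
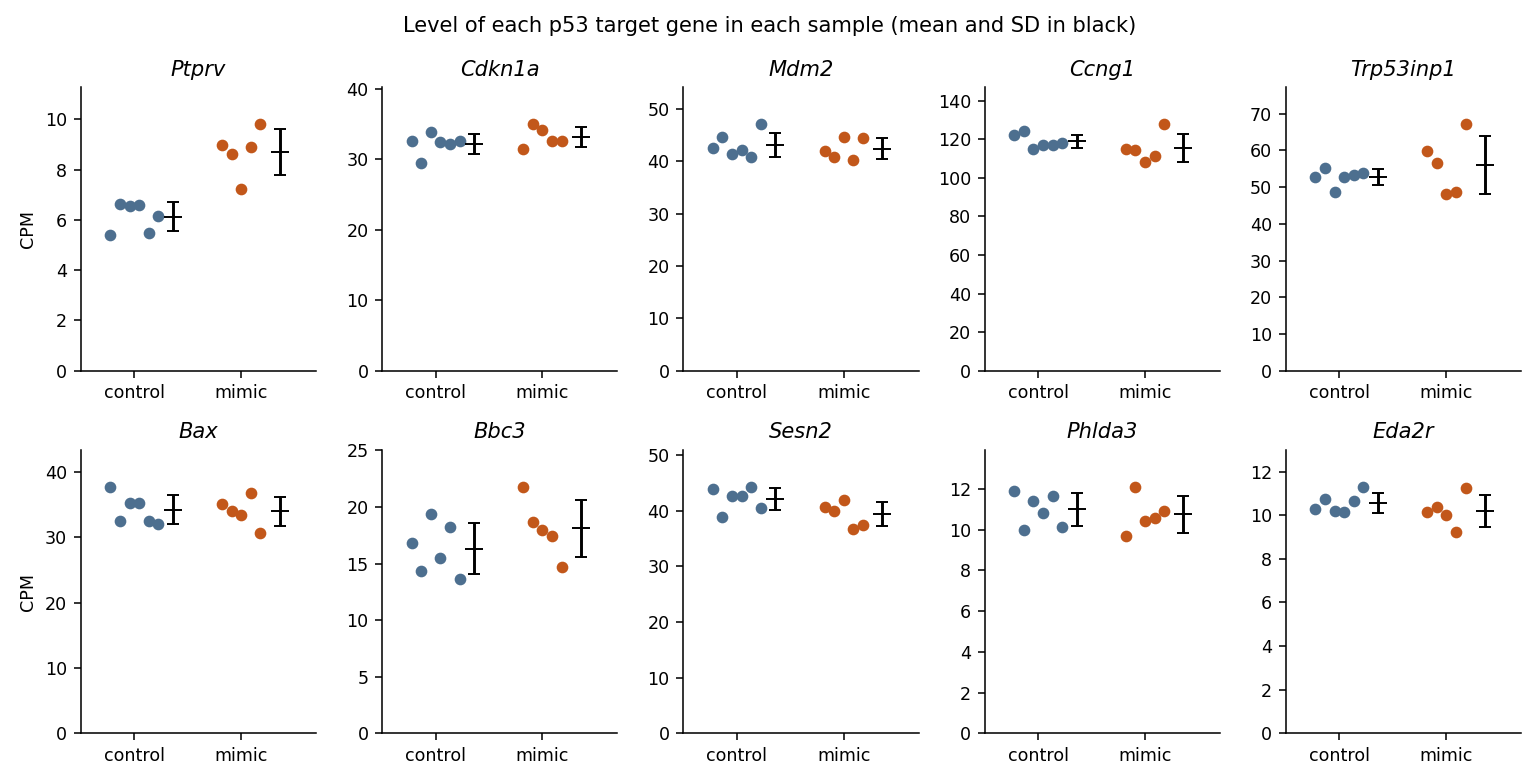
Level in CPM (y axis) of each of the 10 genes in the 6 control and 5 mimic samples, 1 point per sample, with the group mean and SD in black beside the points. In the Ptprv panel the 5 mimic samples (7.24 to 9.80) lie above the 6 control samples (5.38 to 6.61), and in the other 9 panels the points of the groups overlap.

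Ptprv was measured at 5.38 CPM in the lowest control sample, at a median of 6.36 and at 6.61 in the highest. The 5 mimic samples had 8.97, 8.62, 7.24, 8.88 and 9.80 CPM. All 5 mimic samples lay above all 6 control samples, with mimic replicate 3 closest to them. The control mean was 6.13 CPM with an SD of 0.568 (n = 6) and the mimic mean 8.70 CPM with an SD of 0.928 (n = 5), a fold change of 1.43 (95% interval 1.28 to 1.60), or 0.52 on the log2 scale (SE 0.079). These levels rest on 94 to 256 counts per sample. Counting error alone would give a coefficient of variation of 8.20% in control samples and 7.33% in mimic samples, and the values had 9.26% and 10.7%. Ptprv made up 1.43% to 1.80% of the summed level of the 10 genes in control samples and 2.03% to 2.53% in mimic samples.

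Over 19 alternatives, which were 8 other ways of processing and 11 fits that each left out 1 sample, the log2 fold change of Ptprv lay between 0.47 (without control replicate 1) and 0.58 (without mimic replicate 3). These alternatives reuse the counts by which Ptprv was chosen, so their range describes the value and is no support for the difference. Ptprv shares 345 exonic bases with the antisense gene Gm10535 on the + strand, and whether the counting used strand is not stated. Gm10535 had 1 count in control replicate 1, 1 in control replicate 3 and 0 in the other 9 samples.

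**Figure D2:**
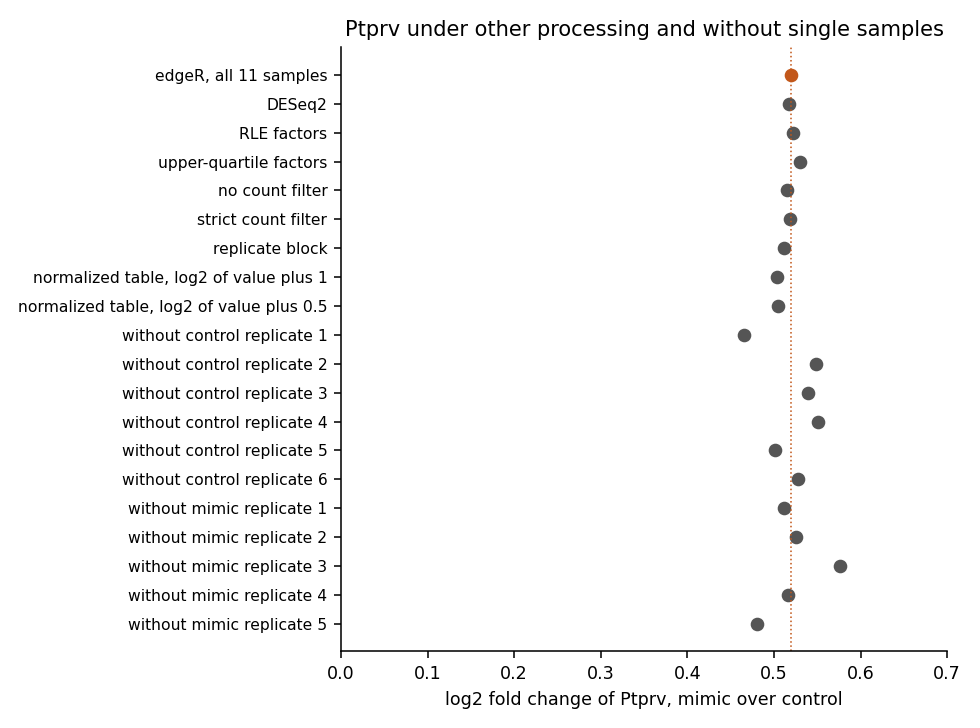
Log2 fold change of Ptprv, mimic over control (x axis), in the fit on all 11 samples (orange, 0.52, dotted line) and under each of 19 alternatives (grey, 1 row each). All 19 grey points lie between 0.47 and 0.58.

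Markers of other cells also differed between the groups. The 15 fibroblast and vascular markers summed to 315 to 460 CPM in controls and to 466 to 611 CPM with the mimic, ranges that did not overlap, and of 14 tested markers the endothelial Cdh5 was called higher and the pericyte gene Rgs5 lower. Of these 14 markers 12 had a log2 fold change above 0, and the endothelial marker Cldn5 was at 0 in 10 of 11 samples. Pecam1 (0.05), Kdr (0.04), Flt1 (0.08), Pdgfrb (0.15), Vtn (0.38) and Acta2 (-0.29) were not called. The calls of Cdh5 and Rgs5 thus do not describe the vascular markers as a set. In controls Col1a1, Col1a2 and Col3a1 averaged 62.2, 78.8 and 129 CPM of a mean sum of 406 CPM, and Cdh5 averaged 1.77 CPM. The 12 microglia markers summed to 28.8 to 30.6 CPM in controls and to 26.9 to 29.1 CPM with the mimic, and the 10 oligodendrocyte lineage markers to 335 to 404 and 307 to 355 CPM. No marker of these 2 lists was at 0 in all samples, and Mag was at 0 in 2 samples. The astrocyte and neuron marker sums given above also did not overlap between the groups and were lower with the mimic. Of the 10 astrocyte markers the glutamate transporter Slc1a2 was called lower (log2 fold change -0.18, adjusted p = 9.9e-05, edgeR). Of the 12 neuron markers Slc17a7, the vesicular glutamate transporter (-0.14, adjusted p = 0.0239, edgeR), and the kinase Camk2a (-0.09, adjusted p = 0.0305, edgeR) were called lower. The part of these cells in the Ptprv difference was not tested.

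Cdkn1a encodes p21, the inhibitor of cyclin-dependent kinases through which p53 stops the cell cycle. Its control samples had 29.5 CPM at the lowest, 32.5 at the median and 33.8 at the highest. The mimic samples had 31.4, 35.0, 34.1, 32.6 and 32.6 CPM. The groups overlapped, and the log2 fold change was 0.04 (SE 0.040, 95% interval -0.04 to 0.12). The upper end of that interval was a fold change of 1.09.

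Mdm2, Ccng1 and Sesn2 act back on p53 or on growth signalling. Mdm2, the ubiquitin ligase that degrades p53, had 40.9 to 47.1 CPM in control samples (median 42.4) and 42.0, 40.9, 44.6, 40.2 and 44.4 CPM in mimic samples, which gave a log2 fold change of -0.03 (SE 0.040, interval -0.11 to 0.05). Ccng1 encodes cyclin G1, a partner of a phosphatase that acts on Mdm2. It had 115 to 124 CPM in control samples and 115, 114, 108, 111 and 128 CPM in mimic samples, with a log2 fold change of -0.04 (SE 0.034, interval -0.11 to 0.03). The gene with the 8-base match printed above was thus measured with the narrowest standard error of the 10, and its groups overlapped, mimic replicate 5 being the highest of all 11 samples. Sesn2, or sestrin 2, restrains mTORC1 signalling. It had 39.0 to 44.3 CPM in control samples (median 42.6) and 40.7, 39.9, 41.9, 36.8 and 37.5 CPM in mimic samples. Its log2 fold change was -0.10 (SE 0.040, interval -0.19 to -0.02). That interval lay below 0, the groups overlapped, and the fit across all genes did not call Sesn2. As for the rest of the 10 genes, these values are a description and no test.

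Trp53inp1 encodes a stress-induced partner of p53 that also acts in autophagy. Its control samples lay between 48.7 and 55.3 CPM (median 53.1), and its mimic samples had 59.8, 56.6, 48.1, 48.6 and 67.1 CPM. The mimic samples spread on both sides of the control range, from the lowest of all 11 values in mimic replicate 3 to the highest in mimic replicate 5, with a coefficient of variation of 14.3% against 4.17% in control samples. The log2 fold change was 0.09 (SE 0.081, interval -0.09 to 0.26). It was 0.017 without mimic replicate 5 and 0.14 without mimic replicate 4.

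Bax and Bbc3 serve the mitochondrial pathway of apoptosis. Bax, which forms pores in the outer mitochondrial membrane, had 32.1 to 37.7 CPM in control samples and 35.1, 34.0, 33.4, 36.7 and 30.7 CPM in mimic samples. Its log2 fold change was -0.02 (SE 0.047, interval -0.11 to 0.08). Bbc3, or PUMA, a BH3-only activator of Bax, had 13.6 to 19.4 CPM in control samples (median 16.1) and 21.8, 18.7, 18.0, 17.4 and 14.7 CPM in mimic samples. Mimic replicate 1 was the highest of all samples, while the lowest mimic sample lay inside the control range. The log2 fold change of Bbc3 was 0.15 (SE 0.11, interval -0.08 to 0.39), and with a coefficient of variation of 13.8% in control samples it was the least precisely measured of the 10.

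Phlda3, an inhibitor of Akt, ranged from 10.003 to 11.9 CPM in controls and from 9.68 to 12.1 CPM with the mimic, with a log2 fold change of -0.03 (SE 0.065, interval -0.16 to 0.10). Eda2r, a receptor of the TNF family, ranged from 10.2 to 11.3 CPM in controls and from 9.24 to 11.3 CPM with the mimic, with a log2 fold change of -0.05 (SE 0.060, interval -0.17 to 0.07). They rest on 183 to 567 counts per sample, more than the 94 to 256 of Ptprv. Further overlaps touch the counting of these genes: Bax shares 192 exonic bases with Gm45808, which had 0 counts in all samples, Cdkn1a shares 273 with a gene that is not in the count tables, and Sesn2 shares 0 exonic bases with Gm12981, which lies within its span.

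**Figure D3:**
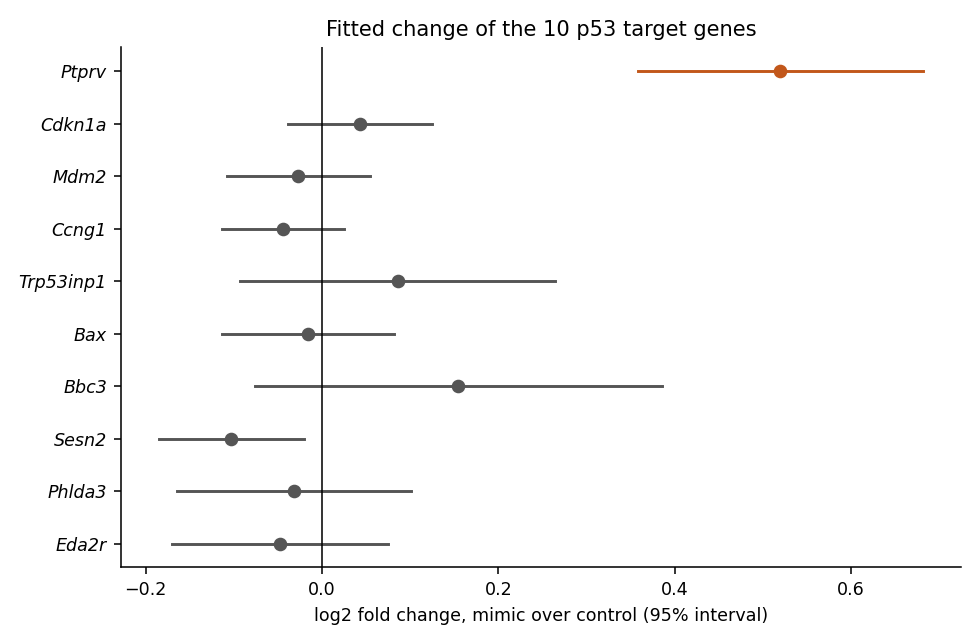
Log2 fold change, mimic over control (x axis), of each of the 10 genes from the fit across all genes, as points with 95% intervals. Ptprv (orange) is at 0.52, and the other 9 (grey) lie between -0.10 and 0.15.

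Levels of different genes were compared per length, as CPM per kilobase of exon in the 6 control samples, a measure the choice of genes did not use. Ccng1 was the highest at 33.9 ± 1.00 (SD, n = 6), followed by Bax at 21.7 ± 1.41 and Sesn2 at 12.1 ± 0.585. Cdkn1a (9.06 ± 0.402), Mdm2 (8.48 ± 0.459), Trp53inp1 (8.15 ± 0.340), Bbc3 (7.68 ± 1.06) and Phlda3 (7.05 ± 0.515) came next, and neighbours among these 5 overlapped in range. Eda2r stood at 1.79 ± 0.0746 and Ptprv at 0.877 ± 0.0813, and neither overlapped with its neighbours. The median over 17312 tested genes with a length was 3.46, so that 8 of the 10 genes lay above it and Eda2r and Ptprv below. Ptprv was at percentile 28.8 of these genes and Ccng1 at percentile 92.4, and the highest level was 38.6 times the lowest.

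**Figure D4:**
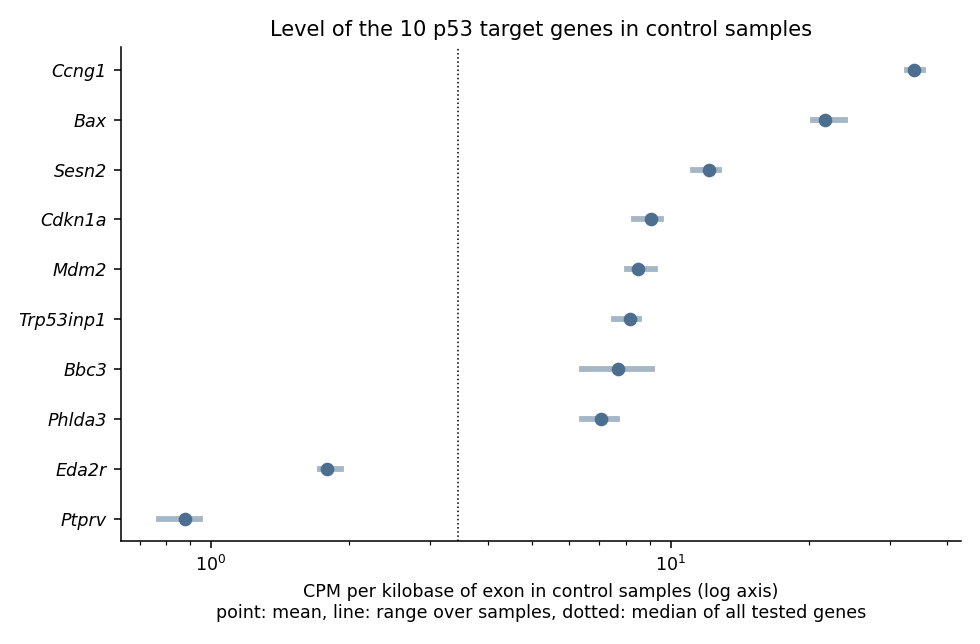
Level of the 10 genes in the 6 control samples in CPM per kilobase of exon (x axis, log scale), with the mean as a point, the range over samples as a line and the median of all tested genes (3.46) as a dotted line. Ccng1 is at the top with 33.9 and Ptprv at the bottom with 0.877.

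Apart from the group difference, the samples also vary within each group, and genes can be compared by that variation. After the group means were removed, the genes whose log2 CPM was most like that of Ptprv over the 11 samples, out of 13924 genes at a mean of 1 CPM or more, were Lin28b (Pearson r = 0.96, Spearman rho = 0.95), Tfdp2 (r = 0.95, rho = 0.96), Gpcpd1 (r = 0.92, rho = 0.95), Stt3a (r = 0.90, rho = 0.92) and Zfp14 (r = 0.90, rho = 0.85). Without the 2 samples farthest from the Ptprv median, r was between 0.82 and 0.95 for these 5 genes. They are the highest of 13924 values over 11 samples that differ in library depth (17287168 to 48091231 counts), and 0 of the 5 were called between the groups. Among the other 9 p53 targets, r with Ptprv ranged from -0.69 (Sesn2) to 0.50 (Trp53inp1), which ranked 1324 of the 13924 genes.

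The other genes of the pathway were then counted from lists. All lists were chosen with earlier results of these data known, so their counts and p-values are a description. The first list held 22 genes of p53 itself, its relatives and its regulators, all of them tested. By edgeR 0 were called higher and 1 was called lower (4.55%, against 1.77% of all tested genes called lower), 5 (22.7%) had an unadjusted p under 0.05, against 2727 (15.7%) of all 17365 tested genes, and the median log2 fold change was -0.01 (all tested genes: -0.00015). Trp53, which encodes p53, had 19.6 to 20.7 CPM in control samples (median 20.2) and 20.1 to 24.9 CPM in mimic samples (median 21.9). Its log2 fold change of 0.13 was not called (SE 0.048, adjusted p = 0.173, edgeR). Mdm4, the partner of Mdm2 that masks p53, had a mean of 97.8 ± 1.55 CPM (SD, n = 6) with the control and 97.1 ± 2.92 CPM (n = 5) with the mimic, and its 3′ UTR holds an 8-base match to the seed. The gene called lower was Crebbp, an acetyltransferase coactivator of p53 and many other factors, with 73.9 ± 2.64 CPM in controls and 67.8 ± 3.03 CPM with the mimic (log2 fold change -0.13, SE 0.033, adjusted p = 0.034, edgeR). The groups overlapped, and the call of Crebbp was lost in 12 of 19 alternatives, among them each fit that left out control replicate 1, 4, 5 or 6 or mimic replicate 2, 3, 4 or 5. Cdkn2a, whose product ARF inhibits Mdm2, had a log2 fold change of 0.26 (adjusted p = 0.272) and Trp73, a relative of p53, of -0.19 (adjusted p = 0.712), and neither was called. Leaving out 1 sample moved Trp73 between -0.35 (without mimic replicate 2) and -0.067 (without control replicate 1).

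The second list held 32 further genes that p53 is known to activate. By edgeR 0 of these were called higher and 2 were called lower (6.25%, against 1.77% of all tested genes called lower), while 24 of the 32 log2 fold changes were above 0, with a median of 0.04. At an unadjusted p under 0.05 there were 10 of the 32 genes (31.2%), against 15.7% of all tested genes. Zmat3, an RNA-binding zinc finger protein, fell from 134 ± 2.30 to 123 ± 3.13 CPM (log2 fold change -0.13, SE 0.026, adjusted p = 0.0078, edgeR). Its control samples reached down to 130.0 CPM and its mimic samples up to 128 CPM, so that the groups did not overlap. Ddit4, or REDD1, an inhibitor of mTORC1, fell from 95.5 ± 3.47 to 87.1 ± 2.70 CPM (log2 fold change -0.13, SE 0.031, adjusted p = 0.0157, edgeR), also without overlap. Zmat3 was called in all 19 alternatives and Ddit4 in 18, all but the fit without control replicate 1. Both carry 1 seed match, as does Crebbp, and the sites are shown with the match in capitals. From these lists only sites of genes called lower are shown. The other genes of the first and second lists with a match were not called. Among them Mdm4, Atm, Rpl5, Dram1, Ercc5, Polh and Slc19a2 hold an 8-base match. Whether the mimic acts through the sites shown was not tested.

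Zmat3, exon 6, 3′ UTR, chr3:32334935-32334941 (-): taaatacagaagtcTGAATGTtatttaag

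Ddit4, exon 3, 3′ UTR, chr10:59949971-59949978 (-): tcttacagactgcaTGAATGTAagagtag

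Crebbp, exon 31, 3′ UTR, chr16:4082530-4082536 (-): ttagtactcacaggTGAATGTcacccatg

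In the second list 8 of the 32 genes held a 7-base match (25.0%) and in the first list 7 of 22 (31.8%), while in a list of 18 cell cycle genes described next it was 2 of 18 (11.1%), against 18.5% of all tested genes with a 3′ UTR. One of those 2 cell cycle genes, Ccna2, holds an 8-base match and was called higher. The remaining named genes of the second list were low in level and were not called: Pidd1, which builds the complex that activates caspase 2, had a log2 fold change of 0.31 (adjusted p = 0.0736), Ddb2, a DNA damage sensor, of 0.27 (adjusted p = 0.108), and Gtse1, a mitotic protein that binds p53, of 0.23 (adjusted p = 0.291), all from the edgeR fit.

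The third list held 18 cell cycle genes that are known to be repressed when p53 raises p21. It too was written with earlier results of these data known. Its counts and p-values are therefore no independent test of the pathway. All 18 had a log2 fold change above 0, with a median of 0.34, and 6 were called higher (33.3%, against 1.08% of all tested genes called higher) while 0 were called lower by edgeR, with 12 (66.7%) at an unadjusted p under 0.05, against 15.7% of all tested genes. DESeq2 called the same genes as edgeR in each of the 3 lists. The 6 genes were Prc1, Top2a, Cdc20, Cdk1, Ccna2 and Bub1. Prc1, which bundles the microtubules of the mitotic spindle, rose from 8.09 ± 0.481 to 10.4 ± 0.796 CPM (log2 fold change 0.39, SE 0.066, adjusted p = 0.0016, edgeR). Top2a, the topoisomerase of dividing cells, rose from 19.98 ± 2.10 to 25.9 ± 1.76 CPM (log2 fold change 0.38, SE 0.062, adjusted p = 0.00188, edgeR). The groups did not overlap in either gene.

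The other 4 called genes, the mitotic activator Cdc20, the kinase Cdk1, cyclin A2 (Ccna2) and the checkpoint kinase Bub1, had log2 fold changes of 0.40, 0.38, 0.35 and 0.47 and means of 2.35 to 5.82 CPM in control samples. Ccnb1 (0.53, adjusted p = 0.0545) and Mybl2 (0.54, adjusted p = 0.145) had larger values and were not called. The value of Mybl2 rested in part on mimic replicate 2, and without that sample it was 0.30. These genes mark dividing cells, which in such cultures are not neurons, and of the cell cycle genes named here only Top2a exceeded 10 CPM in control samples. The count of 6 fell to 3 without control replicate 1 and to 2 without mimic replicate 2, with Prc1 and Top2a called in all 19 alternatives. The fibroblast and vascular marker sum was higher in mimic samples, as given above, and its part in the cell cycle values was not tested.

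**Figure D5:**
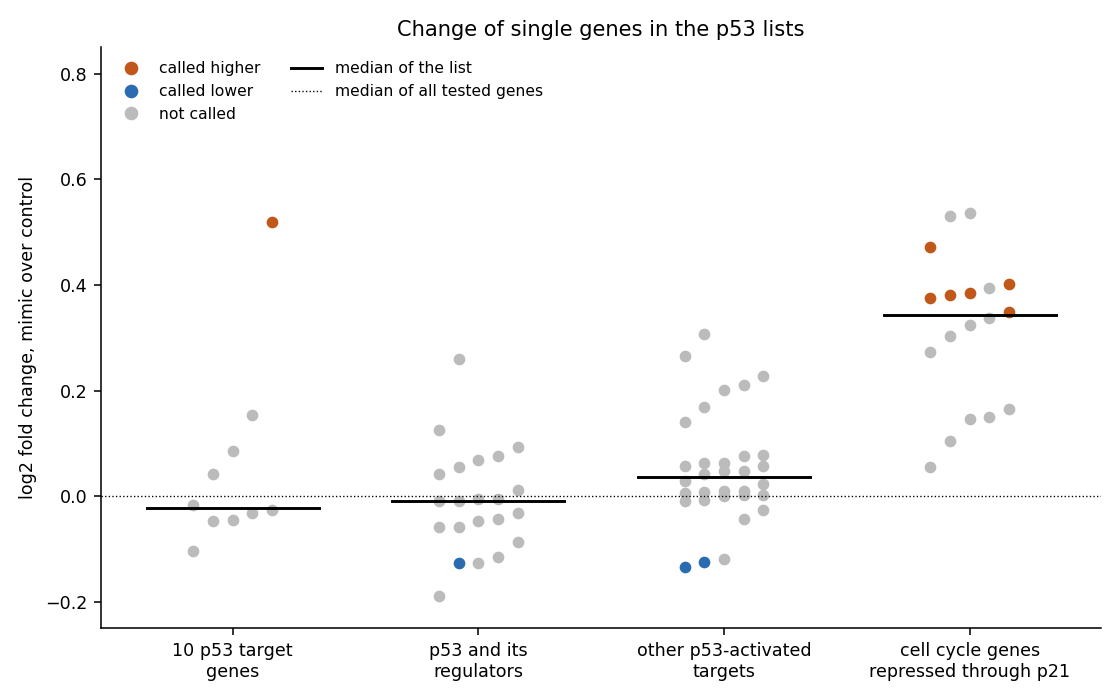
Log2 fold change, mimic over control (y axis), of single genes in 4 lists (x axis): the 10 p53 target genes, 22 regulators, 32 other p53-activated genes and 18 cell cycle genes repressed through p21. Points are coloured by call, solid lines give list medians (-0.02, -0.01, 0.04 and 0.34) and the dotted line the median of all tested genes. Ptprv is the one orange point among the p53-activated genes, and all 18 cell cycle genes lie above 0.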

How the data were processed

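Libraries were prepared with a poly(A) kit and sequenced as 50-base single reads. Per the labels and the study's methods, the authors mapped reads to mm10 (GRCm38) with STAR 2.5.2b counted them per gene with featureCounts (Subread 1.5.1) and deposited the raw counts of each sample in a table of its own. The annotation release and the strand option are not given in the sources used here. A further deposited table holds normalized signal that equals the raw counts divided by 1 factor per sample and was used for an alternative alone. The 10 genes and all lists were chosen with earlier results of these data known. Genes that reached 5 counts in 50% or more of the 11 samples (17365 of 48709) were fitted with edgeR 4.0.16 in R 4.3.3 (TMM, robust quasi-likelihood fit, group as the sole term, all samples, Benjamini-Hochberg over all tested genes, threshold 0.05). The fit was tested on simulated counts. CPM values use TMM library sizes. Alternatives were DESeq2 1.42.0, 2 other scalings, 2 count filters, a replicate block, limma 3.58.1 on the normalized table with a pseudocount of 1 or 0.5, and leaving out each sample. Symbols, positions and 3′ UTRs came from GENCODE M21 (48349 genes matched), and 0 rows named no gene. Named were the 10 genes, and from each other list the called genes, the 3 largest log2 fold changes with a mean of at least 1 CPM, Trp53 and Mdm4, and the 5 genes most like Ptprv. Same-numbered control and mimic samples did not deviate together (r from -0.02 to 0.01 over 5 pairs), so the numbers were not taken as pairs.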

Additional observations from a re-analysis of the deposited data

Results flagged for a closer look

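In 4 of 66 sets of values, each 1 gene in 1 group, 1 sample lay apart from the others by Dixon's ratio of gap to range, and chance flags about 1 in 20. Crebbp in control replicate 2 was at 6.11 log2 CPM, below the other control samples at 6.21 to 6.25 (ratio 0.709). Ddit4 in mimic replicate 5 was at 6.37, below the other mimic samples at 6.45 to 6.48 (ratio 0.754). Prc1 in control replicate 1 was at 2.85, below the other control samples at 3.01 to 3.10 (ratio 0.650). Mybl2 in mimic replicate 2 was at 1.16, above the other mimic samples at 0.24 to 0.45 (ratio 0.773). None of the 10 p53 target genes had a sample apart by this measure in either group.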

How the results depend on the processing

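Over 19 alternatives the number of the 10 p53 target genes called was 1 each time, which describes the value that the choice of Ptprv fixes and is no support for it, and leaving out 1 sample gave 1 to 1. The single regulator called, Crebbp, was lost with upper-quartile scaling (0), with the replicate block (0) and with both pseudocounts on the normalized table (0 and 0), and the count was 0 to 1 when 1 sample was left out. The count of other p53-activated genes was 1 to 3 when 1 sample was left out (1 without control replicate 1, Ddit4 being lost), and that of the cell cycle genes 2 to 8 (3 without control replicate 1, 2 without mimic replicate 2). Mdm4, at -0.01 on the log2 scale, turned to 0.0012 with upper-quartile scaling and ranged from -0.016 to 0.012 when 1 sample was left out, above 0 without control replicate 6 (0.0031) and without mimic replicate 3 (0.012). Of the 10 p53 target genes, Bax, Mdm2 and Phlda3 also turned above 0. Bax was at 0.021 without control replicate 1 and 0.019 without mimic replicate 5. Mdm2 was at 0.0038 without control replicate 6 and 0.00029 with the replicate block. Phlda3 was at 0.0038 without control replicate 1 and 0.0030 without mimic replicate 1. The cause was not tested. With the replicate block Ptprv had a log2 fold change of 0.51, and Crebbp and Cdc20 were not called. The number of genes called was 333 (170 higher, 163 lower), against 495 in the main fit. Control replicate 6 has no mimic sample of its number. Leaving it out with no block gave 350 genes called, also without Crebbp but with Cdc20. The lower number and the loss of Crebbp can therefore not be assigned to the block. Samples of the same number did not deviate together, and 0 of 10 correlated best with their own number. Over all genes, 785 were called without a count filter, 218 without control replicate 1, 237 without mimic replicate 2 and 278 without mimic replicate 4. Upper-quartile scaling moved the median of all genes to 0.01 and the split from 188 higher and 307 lower to 234 and 226. Ptprv rests on 94 to 256 counts per sample, which limits its precision.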
